A study of Mus musculus with 4 samples.

Results

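Genes of Schwann cells and myelin, 8 in all, namely Pmp22, Mbp, S100b, Sox10, Gfra2, Ngfr, Mal and Cnp, were followed in newborn skin that lacked loricrin and in wildtype skin. The members were all probe sets, on 2 Affymetrix array types, whose platform gene symbol was exactly one of these 8 names. No measured value decided which probe sets matched, but the 8 names were chosen with earlier results of these data known. The members came to 14 probe sets of 24833. The first array type had 11 probe sets for 7 genes, and the second 3 probe sets for 3 genes. Sox10 and Gfra2 were on both types, Ngfr was on the second only, and the other 5 genes were on the first only. The loricrin knockout group was whole skin at postnatal day 0 of FVB/N mice with the genotype loricrin knockout, and the wildtype group was whole skin of the same strain and age. Each group had 2 arrays, 1 on each type. The labels do not say how the knockout was made, whether skins were pooled, or whether the second array of a genotype held RNA of another animal.

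Schwann cells are the glia of peripheral nerves, and in skin they accompany the sensory and autonomic axons that run through the dermis. They arise from the neural crest, as melanocytes do, under the transcription factor SOX10. Some of them wrap axons in myelin, a compacted membrane held together by proteins such as myelin basic protein and peripheral myelin protein PMP22, while others ensheath thin axons without myelin and keep the neurotrophin receptor that Ngfr encodes. In whole skin they contribute little of the RNA, and fewer cells of a type and less RNA per cell cannot be told apart.

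Promoter windows of Pmp22 and Ngfr are shown because these were the genes whose probe sets were detected above the floor in wildtype skin only, besides 1 Mbp probe set. RefSeq windows of GRCm38.p6, from 250 bases before to 50 after a start, were used for 5 of the 8 genes. Sox10 and Gfra2 had no window, and windows on the chromosome that carries Mbp were left out. The most upstream and most downstream of 4 Pmp22 windows and the Ngfr window follow, 5′ to 3′ on the gene's strand, with each GGGCGG or its reverse complement CCGCCC (the GC box) in capitals.
Pmp22, most upstream start, chr11:63128732-63129031, plus strand: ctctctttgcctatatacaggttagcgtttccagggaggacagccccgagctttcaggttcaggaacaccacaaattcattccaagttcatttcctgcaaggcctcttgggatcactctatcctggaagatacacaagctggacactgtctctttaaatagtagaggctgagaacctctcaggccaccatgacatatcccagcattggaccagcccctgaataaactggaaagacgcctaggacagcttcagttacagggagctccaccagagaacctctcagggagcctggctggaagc
Pmp22, most downstream start, chr11:63132553-63132852, plus strand: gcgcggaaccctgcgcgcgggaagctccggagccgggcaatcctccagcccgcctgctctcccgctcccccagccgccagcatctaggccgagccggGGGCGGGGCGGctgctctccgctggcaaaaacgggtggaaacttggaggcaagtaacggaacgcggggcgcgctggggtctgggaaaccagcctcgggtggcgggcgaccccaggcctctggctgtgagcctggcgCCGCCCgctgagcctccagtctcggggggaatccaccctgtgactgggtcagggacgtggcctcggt
Ngfr, chr11:95587649-95587948, minus strand: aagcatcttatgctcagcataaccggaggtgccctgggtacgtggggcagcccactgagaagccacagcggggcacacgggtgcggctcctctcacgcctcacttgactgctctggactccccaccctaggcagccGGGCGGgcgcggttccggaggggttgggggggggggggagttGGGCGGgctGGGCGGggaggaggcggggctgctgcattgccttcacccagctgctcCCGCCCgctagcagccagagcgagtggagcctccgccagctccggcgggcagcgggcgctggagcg
The upstream Pmp22 window held 3 CpG and 50.7% G and C, against 30 CpG and 72.3% in the downstream one, where 3 GC boxes were found, 2 of them overlapping by a base. Ngfr had 4 GC boxes, 23 CpG and 71.7% G and C. A GC box was present in 35.7% of all 32851 windows of this length. On both strands none of the 3 printed windows held TATAAA (13.6% of all windows), the SOX core ACAAAG (18.7%) or AACAAT (10.7%). The arrays measured transcripts and did not record which start was used.

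Signals are MAS5 intensities on a linear scale. On each type a floor was set at the mean of the 40th percentiles of its arrays, 77.6 on the first and 133 on the second, and a lower signal was raised to it before the ratio was taken. Where 1 of the signals was at the floor, the ratio gives a bound on the fold. The words higher and lower below mean at least 2-fold, a rule of size, because 1 array per genotype and type allows no test within a type. On the first type 1.91% of 7904 measured probe sets were lower by this rule and 1.37% higher, and on the second 2.80% of 8142 were lower and 2.26% higher. A probe set counts as measured where at least 1 of its 2 signals lay above the floor.

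Most of the 8 genes differed little or were too dim to compare. Of the 14 probe sets, 6 were above the floor in both genotypes, 3 in wildtype only, none in knockout only, and 5 in neither. Of the 9 measured ones, 1 was lower in knockout, the myelin gene Pmp22, and none was higher. On the first type that is 1 of 6, and on the second 0 of 3. Over the members above the floor in both genotypes the median log2 ratio of knockout over wildtype was -0.08 (4 probe sets) on the first type and -0.35 (Gfra2 and Sox10 alone) on the second, beside 0.02 and 0.0054 over all such probe sets. With the bounds of Pmp22, Mbp and Ngfr included, whose sign follows from being above the floor in wildtype only, the medians were -0.24 and -0.28. Being above the floor in wildtype only held for 6.57% (first type) and 8.84% (second type) of measured probe sets, and in knockout only for 4.48% and 8.09%.

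**Figure D1:**
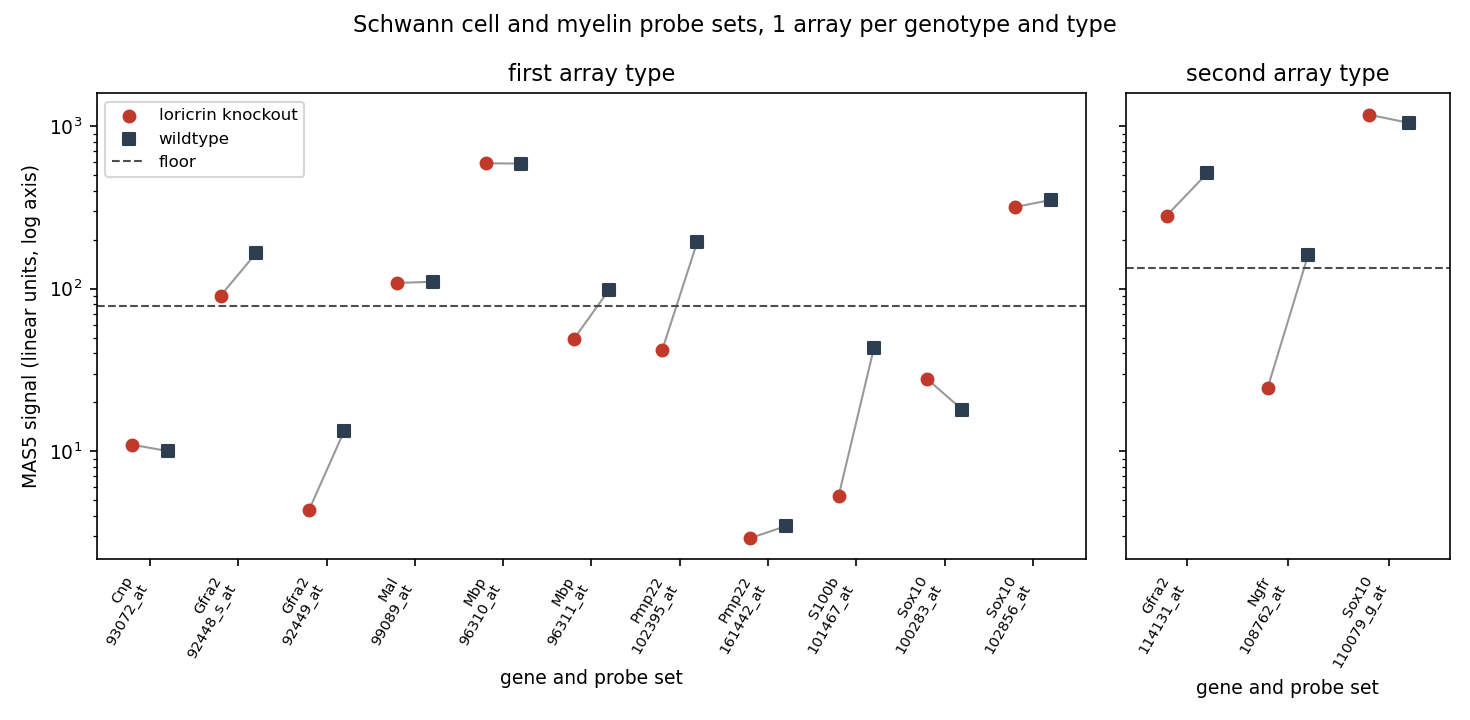
MAS5 signal of each of the 14 member probe sets on a log axis, knockout as circles and wildtype as squares, with 1 array per genotype and type, no error bars and the floor as a dashed line. Pmp22 on the first type and Ngfr on the second cross the floor between genotypes, while both Sox10 probe sets above the floor are nearly level.

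The loricrin label was checked first. The brighter loricrin probe set, present on the first type, read 2013 in knockout and 41225 in wildtype. Sex-linked transcripts also differed: on the first type Xist had 857 in knockout skin and 24.7 in wildtype skin and the Y-linked Eif2s3y 42.7 and 1071, and on the second Kdm5d, on the Y chromosome, had 12.2 in knockout skin and 976 in wildtype skin. Sex and genotype therefore cannot be told apart in any value below. The Schwann cell markers analysed here were 7 genes. Sox10, Erbb3, Egr2 and Gfra3 were above the floor in both genotypes, Ngfr in wildtype only, and S100b and Foxd3 in neither. Erbb3 and Egr2 are also used by skin epithelium, Sox10 also by melanocytes and Gfra3 also by nociceptors, so none of them marks Schwann cells alone. Gfra3 read 91.1 in knockout, close above the floor of 77.6.

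The transcription factor Sox10, which sets Schwann cell and melanocyte identity, was at nearly the same level in both genotypes. On the first type the detected Sox10 probe set (102856_at) read 318 in knockout and 350 in wildtype, for a log2 ratio of -0.14. On the second type Sox10 (110079_g_at) read 1175 in knockout and 1045 in wildtype, for a log2 ratio of 0.17. The sign thus differed between the types, and neither ratio came near 2-fold. In limma, fitted over all 1082 genes on both types with array type as a block, Sox10 had a mean log2 ratio of 0.01 (SE 0.24, 95% interval -0.50 to 0.52, adjusted p = 0.997, n = 2 arrays per genotype). A second Sox10 probe set of the first type (100283_at) read 27.8 in knockout and 18.0 in wildtype, both below the floor, although the annotation lists it with the same source sequence as the second-type probe set. That probe set has a suffix the array's maker uses for shared sequence.

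Gfra2 encodes the co-receptor that binds neurturin and presents it to the RET kinase, and it is known from sensory neurons and peripheral glia. On the first type Gfra2 (92448_s_at, suffixed for shared sequence) read 90.5 in knockout, close above the floor of 77.6, and 165 in wildtype. By the second type Gfra2 (114131_at) had 281 in knockout and 511 in wildtype. Knockout was the dimmer array on both, with log2 ratios of -0.87 and -0.86, or folds of 1.82 on each, short of the 2-fold rule. The mean in limma was -0.86 (SE 0.24, 95% interval -1.37 to -0.36, dimmer in knockout on 2 of 2 types), but the adjusted p over the 1082 genes was 0.213 and Gfra2 did not pass. Its ratios on the types differed by far less than the SD of such differences, 0.51 over the 997 genes above the floor on all 4 arrays. A single small difference does not measure how precise the Gfra2 ratio is. In that fit 0.0924% of genes passed as lower and 0% as higher. The p-values rest mostly on variance pooled over genes, since a gene brings 1 residual degree of freedom and the prior 15.4. A further Gfra2 probe set (92449_at, first type) read 4.33 in knockout and 13.3 in wildtype, both below the floor.

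The log2 ratios of Gfra2 and Sox10 were also set against each other within each array pair, where a constant scaling factor cancels. This contrast was not planned beforehand, and its sign followed from the ratios given above. Gfra2 minus Sox10 was -0.73 for the first type, where Sox10 stood at -0.14, and -1.03 for the second, where Sox10 stood at 0.17. The knockout arrays thus had less Gfra2 signal for a given Sox10 signal on both types, by 1.65-fold and 2.05-fold, with no replicate error. The contrast was -0.65 and -1.01 under quantile and -0.63 and -1.01 under loess scaling, which change with the signal. It was closest to 0 with the floor added as a pseudocount, at -0.41 and -0.79. Gfra2 on the first type and Sox10 on the second were read by probe sets suffixed for shared sequence. The contrast could therefore not be taken on either type without such probe sets. Sox10 is also a melanocyte gene, so its signal is no reference for glia alone.

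**Figure D2:**
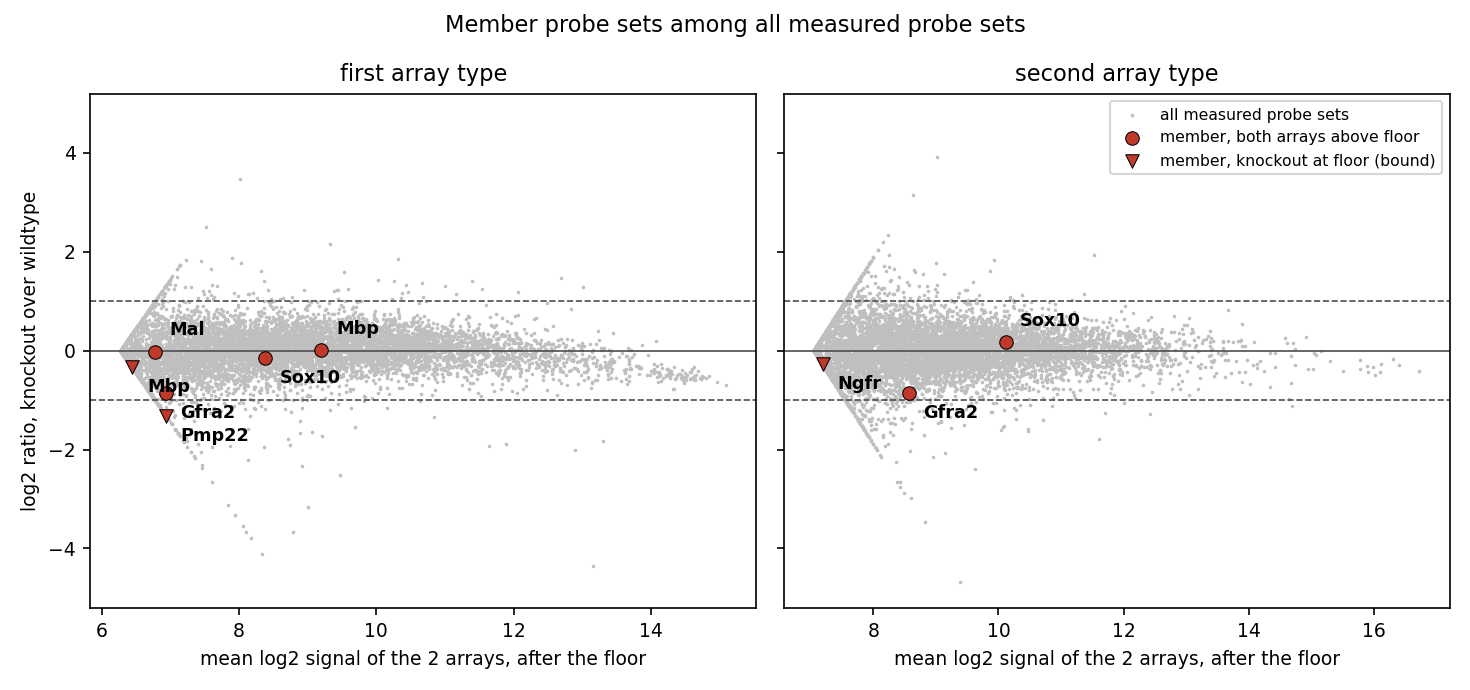
Log2 ratio of knockout over wildtype against the mean log2 signal after the floor, for every measured probe set (grey) and the measured members (red; triangles mark bounds, dashed lines the 2-fold rule). Gfra2 sits at -0.87 (first type) and -0.86 (second type), inside the dashed line, and Pmp22 lies beyond it on the edge that the floor sets.

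Among the structural myelin genes, only Pmp22 passed 2-fold. PMP22 is a membrane protein of compact myelin that is also made by growth-arrested fibroblasts. Its brighter probe set (102395_at) read 41.7 in knockout and 195 in wildtype, which with knockout at the floor is at least 2.51-fold lower, a log2 ratio of -1.33 or below. It rests on 1 array per genotype, and the other Pmp22 probe set (161442_at) read 2.92 in knockout and 3.45 in wildtype, below the floor in both. Genes of dermal fibroblasts and matrix were lower in the same array: of 19 measured ones 11 were lower and none higher, with a median log2 ratio of -1.79, 3 of the 19 being bounds, beside 0.017 over all measured genes, of which 1.84% were lower and 1.12% higher. Under spike-in scaling 10 were lower and 1 higher, with a median of -1.10. Their part in the Pmp22 value was not tested.

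Myelin basic protein, the cytoplasmic glue of compact myelin, gave 2 different pictures. The brighter Mbp probe set (96310_at) read 590.4 in knockout and 588 in wildtype, for a log2 ratio of 0.0070. The dimmer Mbp probe set (96311_at) read 48.9 in knockout and 98.2 in wildtype, a bound of 1.27-fold, so it did not pass. The Mbp locus also makes transcripts outside myelinating cells, and which of them each probe set reads was not tested. Mal, a raft protein of myelin, T cells and epithelia, read 108 in knockout and 110.1 in wildtype (99089_at), for a log2 ratio of -0.02. Cnp, a cyclic nucleotide phosphodiesterase of the non-compact myelin of Schwann cells and oligodendrocytes, read 10.9 in knockout and 10.0 in wildtype (93072_at), and could not be compared.

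Ngfr and S100b, the remaining members, were near the floor or below it. Ngfr, the low-affinity neurotrophin receptor of immature and non-myelinating glia and of some hair follicle cells, read 24.6 in knockout and 161 in wildtype (108762_at). The wildtype signal lay just above the second type's floor, so only a bound of 1.21-fold can be given, a log2 ratio of -0.28. S100b, a calcium-binding protein of Schwann cells, melanocytes and adipocytes, read 5.31 in knockout and 43.3 in wildtype (101467_at), both below the floor. For Pmp22, Ngfr and the dimmer Mbp probe set the wildtype signal alone was above the floor, and for S100b no comparison can be made.

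**Figure D3:**
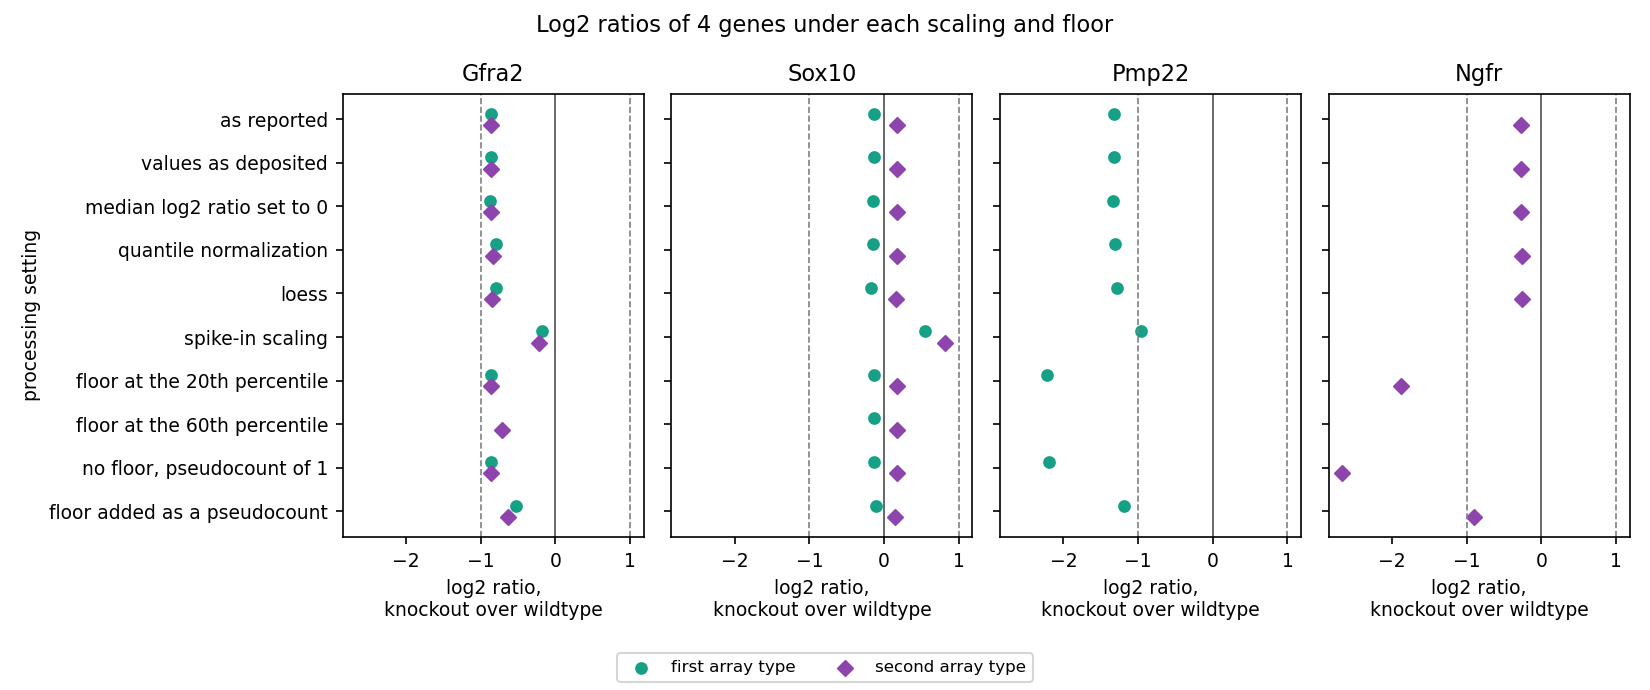
Log2 ratio of knockout over wildtype for the measured probe sets of Gfra2, Sox10, Pmp22 and Ngfr under each scaling and floor (first type circles, second type diamonds, dashed lines at 2-fold). Gfra2 and Sox10 shift together under spike-in scaling, while Pmp22 and Ngfr move with the floor. A missing point had no signal above that floor.

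All ratios are relative to the typical probe set. For the 9 bacterial spike-in probe sets the log2 ratio averaged -0.69 (first type) and -0.65 (second type), and scaling on them moved the median of measured probe sets to 0.66 and 0.60. Under that scaling Gfra2 stood at -0.18 and -0.21 and Sox10 at 0.55 and 0.82, and in limma Sox10 had an adjusted p of 0.0380 as higher, where 55.4% of the 1075 genes fitted passed as higher and 0.093% as lower, and Gfra2 one of 0.413. Pmp22 stood at -0.96 or below, no longer past 2-fold. The medians of the glial lists turned positive, to 0.55 for the 8 genes, 0.41 for the other myelin genes and 0.55 for the other lineage genes on the first type. By the 2-fold rule 3 of 14 lineage genes, with Erbb3 (1.01) among them, and 1 of 5 GDNF family genes were then higher on the first type. On the second type 1 of 3 lineage, 2 of 6 myelin and 1 of 3 neurotrophin genes were higher. Of all measured genes 18.4% (first type) and 17.5% (second type) were higher, and 0.615% and 0.763% lower.

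The ligands and receptors around Gfra2 and Ngfr did not pass 2-fold, apart from the calls under spike-in scaling given above. Of the GDNF family list, 5 genes were measured on the first type, with none past 2-fold and a median log2 ratio of 0.07. Neurturin (Nrtn), the ligand that GFRA2 binds, read 2919 in knockout and 2777 in wildtype, and persephin (Pspn) 247 and 193. Gfra3, the artemin co-receptor of nociceptors and Schwann cells, read 91.1 in knockout and 131 in wildtype, for a log2 ratio of -0.52. The signalling partner Ret read 3.63 in knockout and 14.3 in wildtype, below the floor. On the second type Gfra4 read 731 in knockout and 932 in wildtype. Of the neurotrophin list, 1 gene was measured by the first type and 3 by the second, none past 2-fold. Sort1, the sortilin that pairs with the Ngfr receptor, read 10122 in knockout and 7483 in wildtype, and Ntrk3, a neurotrophin receptor kinase, 259 and 349, while Maged1, an intracellular partner of the Ngfr receptor, read 444 and 412 on the first type. Erbb3, the neuregulin receptor that Schwann cells need, read 3263 in knockout and 2607 in wildtype, for a log2 ratio of 0.32, and the ligand gene Nrg4 400.0 and 419 on the second type.

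Other genes of the glial lineage had ratios on both sides of 0. Of 14 further Schwann cell lineage genes measured on the first type, 1 was lower and none higher, with a median of -0.14, and of 4 on the second none passed, with a median of 0.13, where the adhesion gene L1cam read 1968 in knockout and 1337 in wildtype and the transcription factor gene Sox9 550.4 and 498. The lower one was Lama4, a laminin chain of nerve and vessel basement membranes, at 57.5 in knockout and 156 in wildtype, at least 2.01-fold, a call that ended under quantile, loess and spike-in scaling (log2 ratios of -0.98, -0.97 and -0.64). Egr2, the transcription factor of myelination, read 1112 in knockout and 1156 in wildtype. Its co-repressors had log2 ratios of -0.03 (Nab1) and -0.12 (Nab2) for the first type. For the second type Nab2 had 0.11. Nab1, through a suffixed probe set, read 82.3 in knockout, below the floor, and 151 in wildtype, a bound of -0.18. Of 3 further myelin genes measured on the first type, 1 was lower, the myelin transcription factor gene Myrf, which read 48.4 in knockout and 213 in wildtype, at least 2.74-fold. MYRF is known from oligodendrocytes rather than Schwann cells. The tetraspanin gene Cd9 read 2299 in knockout and 2701 in wildtype and Mag, the myelin-associated glycoprotein, 86.7 and 105. On the second type none of 6 passed, and the 4 above the floor in both genotypes had a median of 0.12. Among them the lipid hydroxylase gene Fa2h, also active in epidermis, read 1704 in knockout and 1277 in wildtype. The adhesion gene Cadm4 read 939.9 and 1055. The other 2 were above the floor in knockout only, so that their sign was fixed. Ncmap read 188 in knockout and 89.6 in wildtype, and Drp2 168 and 115. With these bounds included the median was 0.37.

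**Figure D4:**
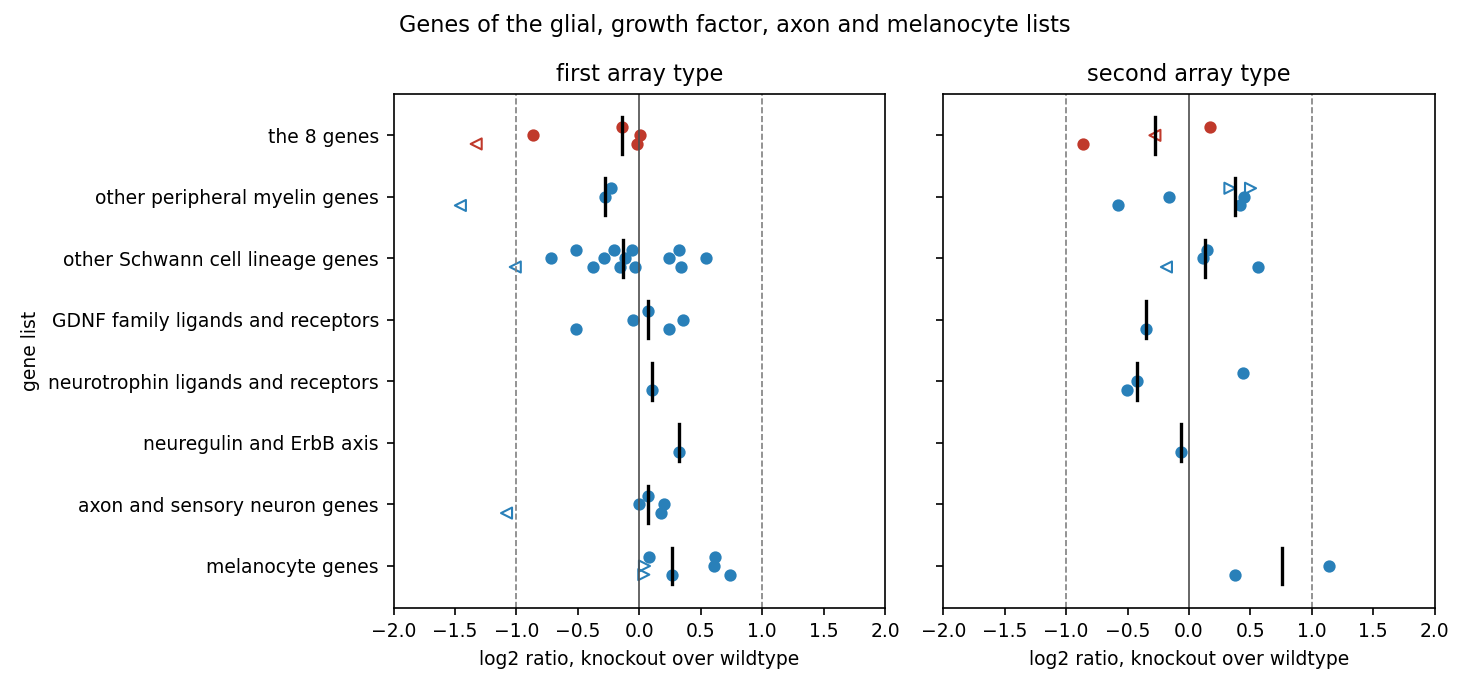
Log2 ratio of knockout over wildtype per measured gene in the 8 genes (red) and 7 related lists (blue), by array type, with list medians (bounds included) as black bars, open triangles for bounds and dashed lines at 2-fold. Most genes lie between the dashed lines, and the melanocyte genes drawn without triangles lie above 0 on both types.

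Few transcripts of axon and sensory neuron genes were above the floor, and how many nerve fibres the skin held was not tested. Of 20 axon and sensory neuron genes, 18 are named on the first type and 5 were measured there, of which 1 was lower and none higher, with a median of 0.07. The lower one was Uchl1, the pan-neuronal ubiquitin hydrolase, at 43.9 in knockout and 164 in wildtype, at least 2.12-fold, but not past 2-fold under spike-in scaling (-0.71). The neurofilament genes Nefl and Nefm and peripherin (Prph) were below the floor in both genotypes, and on the second type 5 are named and none was measured. The brightest were the tubulin gene Tubb3, at 2836 in knockout and 2842 in wildtype through a probe set suffixed for shared sequence, and the synuclein gene Sncg, at 232 and 221.

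Melanocytes share Sox10 and the neural crest origin, and their genes had positive ratios. Of 7 measured on the first type none passed 2-fold. The 5 above the floor in both genotypes had log2 ratios from 0.08 to 0.74, and Tyr and Mitf were above it in knockout only, so that their sign was fixed. The melanin enzyme gene Dct read 1429 in knockout and 856 in wildtype there, and 3901 and 1769 on the second type, 2.21-fold higher, where 2.19% of measured genes were higher and 2.77% lower. Pmel, a melanosome fibril protein, read 721 in knockout and 598 in wildtype, and the endothelin receptor gene Ednrb 669 and 515 on the second type. These ratios stayed above 0 under quantile and loess scaling. How much of the Sox10 signal came from melanocytes and how much from glia was not tested. Other cell types that share members gave few measured genes. The T cell genes Cd3e and Cd3g and the adipocyte gene Adipoq were below the floor in both genotypes, and the fat gene Fabp4 read 90.7 in knockout and 95.1 in wildtype. None of 4 T cell genes measured by the first type (median -0.18), 2 adipocyte (-0.19), 2 oligodendrocyte (0.12), 2 skeletal muscle (-0.11) or 4 endothelial genes (-0.37) passed 2-fold. Of 8 keratinocyte genes 3 were higher (median -0.21), and of 4 erythroid genes 3 were lower and 1 higher (median -1.81). On the second type none of the 1 adipocyte, 1 oligodendrocyte, 1 endothelial, 1 dermal and 2 keratinocyte genes measured passed.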

How the data were processed

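The deposited values are linear array intensity signals, 1 for each probe set of an array, made by the authors with MAS5 per the submitters' processing notes. No MAS5 version, scaling target or detection call is given in the sources used here. MAS5 subtracts local background and mismatch signal, so dim probe sets are imprecise, and the number of arrays (4) limits the precision. The 2% trimmed means (500.2 to 500.4) were set equal within a type, the floor was applied, and log2 ratios were taken. The 66 control probe sets per type were left out after scaling. Genes were named from probe sets with 1 gene, updated through a RefSeq table of GRCm38.p6 (10817 of 10833 on the first type, 10550 of 10581 on the second). A gene with several probe sets took the one of highest mean log2 signal. Genes whose mean log2 signal was above the floor on both types entered limma 3.58.1 (lmFit, eBayes, Benjamini-Hochberg) with array type as a block. Nothing in the labels says that arrays were separate animals, so its p-values may reflect technical spread alone. The steps were tested on simulated data. Members, gene lists and alternatives (scaling, floor, rule of size, suffixes, value per gene, block) were chosen with earlier results of these data known. The rule named all members, loricrin, and from each other list per type up to 4 genes past 2-fold and the 2 brightest; lists of other cell types are given by counts instead. Named after their values were seen were the sex-linked genes, Gfra3, Ret, Egr2, Nab2, Nab1 on the second type, Mag, Ncmap, Drp2, Foxd3, the neurofilament genes and the T cell and adipocyte markers. No gene of similar pattern was sought, since 2 arrays per type give no measure of likeness.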

Additional observations from a re-analysis of the deposited data

How the results depend on the processing

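The count of members past 2-fold on the first type, 1 as reported, was 0 under spike-in scaling, 3 when the floor was the 20th percentile, 0 when it was the 60th, 3 with no floor and a pseudocount of 1, 2 by a 1.5-fold rule and 0 by a 3-fold rule. On the second type, 0 as reported, it was 1 when the floor was the 20th percentile, 1 with no floor and 1 by a 1.5-fold rule. Every call was in the lower direction. The share of all probe sets called under the other floors and fold rules was not counted. These counts therefore show how the calls depend on the settings and are no result about the members. The median log2 ratio of members on the first type was 0.55 under spike-in scaling, -0.50 when the floor was the 20th percentile and -0.067 when it was the 60th. On the second it was 0.30 under spike-in scaling, -0.86 at the 20th percentile floor, -0.86 with no floor, -0.64 when the floor was added as a pseudocount, and -0.57 without suffixed probe sets. Floors change which probe sets are measured; the cause of other shifts was not tested. Quantile, loess and median scaling and the values as deposited changed neither count and moved both medians by less than the spread of a ratio between the types. For the genes on both types, limma passed 1 as reported, 0 without the array type block (no replicate block), 0 under quantile normalization, 8 under loess, 0 at the 20th percentile floor, 6 at the 60th and 0 with no floor. Alternatives chosen after seeing the data passed 597 of 1075 under spike-in scaling, 596 of them higher, and 0 with genes above the floor in at least 1 array of each type. Gfra2 did not pass under any of these, with adjusted p from 0.160 (loess) to 1.00 (no block), and did not enter at the 60th percentile. Without 1 array of a type no residual degree of freedom remains, so only the other type's ratio is left, -0.87 to -0.86 for Gfra2 and -0.14 to 0.17 for Sox10. The array type block, which pairs the knockout and wildtype arrays of a type, was the only pairing possible. The labels give no replicate numbers that pair arrays in another way. Dim signals near the floor limit Pmp22, Ngfr, S100b and Cnp, and on the first type also Gfra2, Mal and the dimmer Mbp probe set. At the 60th percentile floor only Sox10 and the brighter Mbp probe set were still measured on the first type.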
